A study of Homo sapiens with 6 samples.

Results

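The 35 genes described here encode the chaperones, folding enzymes, stress sensors and degradation machinery of the endoplasmic reticulum (ER), and they were listed by name for their known function, with earlier results of these data known. Each was read by 1 probe set, the brightest over all 6 arrays among those assigned to that gene alone. This left 34 of the 35, out of 19775 genes measured in all, because SYVN1 has no probe set of its own. Transcript levels came from Affymetrix HG-U133 Plus 2.0 arrays of 1833 cells, a bone-homing subline of the human breast cancer line MDA-MB-231. The 3 control arrays are of cells labelled control, which the series describes as vector control. The other 3 arrays are labelled S153E-RKIP, a mutant of the Raf-1 inhibitor RKIP described as the more potent form, delivered by lentivirus with puromycin selection at 0.5 µg/ml. All cells grew with 10% serum. The sources used here do not give the promoter of the vector or the number of clones behind each group. The titles name the samples of each group biological replicates 1 to 3, and no label tells whether these were separate cultures or transductions. The p-values therefore speak of the spread among these arrays, whose source is not stated.

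Proteins that enter the secretory pathway fold in the ER with the help of BiP, encoded by HSPA5, and of lectin chaperones and disulfide isomerases. When unfolded proteins build up, the sensors IRE1 (ERN1), PERK (EIF2AK3) and ATF6 start the unfolded protein response. IRE1 splices XBP1 mRNA, PERK slows translation and favours ATF4, and ATF6 is cut to release a transcription factor. XBP1 and ATF6 switch on chaperone genes and the genes of ER-associated degradation, in which misfolded proteins are moved back to the cytosol and destroyed by the proteasome. Cancer cells that secrete much protein are known to draw on this system.

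Of the 34 members measured, HERPUD1, a membrane protein of the degradation complex, fell on the arrays labelled S153E-RKIP, and 33 did not pass the test. The test was limma's moderated test with Benjamini-Hochberg adjustment over all 19775 genes, and called means an adjusted p under 0.05. The fall of HERPUD1 was 1.52-fold. Among all genes, 1.21% were called lower and 0.688% higher, beside 1 of 34 members (2.94%) lower and 0 higher. No chaperone, disulfide enzyme, sensor or translocon gene was called, and 6 members had an unadjusted p under 0.05. In bulk RNA, fewer cells with a transcript and less of it per cell cannot be told apart.

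The check of the labels was read first. PEBP1, which encodes RKIP, had a log2 fold change of -0.093 (SE 0.058, limma adjusted p = 0.473), and all 6 arrays lay between 11.61 and 11.77. HMGA2, which the source name of the treated samples mentions as an shRNA target, had one of -0.023 (adjusted p = 0.882). Neither gene passed the test, so the values do not check the labels. Every direction below rests on the title, description and characteristics, which all give S153E-RKIP, while the source name differs. Of the 6 markers of a basal-like breast cancer line, from VIM to S100A4, each had a mean between 11.15 and 14.44. The 6 luminal markers ran from 4.04 for PGR to 13.02 for KRT18, with GATA3 at 8.08, and the 5 epithelial junction markers from 4.18 for CDH1 to 8.31 for EPCAM. The basal-like list averaged 12.56 to 12.63 on control arrays and 12.27 to 12.49 on the others, and 0 of its 6 genes were called by limma. The luminal list averaged 7.03 to 7.08 and 7.05 to 7.06, and the junction list 5.97 to 6.14 and 5.98 to 6.16. The 4 measured of 6 blood cell markers averaged 5.36 to 5.43 against 5.49 to 5.61, with PTPRC the dimmest at 3.93, and the 3 fibroblast markers 6.01 to 6.03 against 6.07 to 6.19, from PDGFRA at 4.40 to COL1A1 at 8.23. Both lists were higher on all S153E-RKIP arrays. For 6 markers of plasma cells and similar secretory cells the ranges were 5.84 to 5.89 and 5.84 to 5.92, from JCHAIN at 3.56 to SDC1 at 9.50. No gene of these 6 lists was called by limma. Any part of these shifts in the results was not tested. The first principal component (46.1% of the variance) had the control arrays from -13.1 to -10.6 and the S153E-RKIP arrays from 8.34 to 13.5. It parts the 2 groups but does not tell what the cells of each had received. The second principal component (21.6% of the variance) had S153E-RKIP replicate 1 at one end and replicates 2 and 3 at the other.

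Promoter sequences from RefSeq (GRCh38.p14) are shown because the genes of this response are known for a shared promoter element. The ER stress response element, ERSE, is CCAAT and CCACG with 9 unspecified bases between them, in which NF-Y binds the CCAAT part and ATF6 or XBP1 the CCACG part. A second form, ERSE-II, is ATTGG and CCACG with 1 unspecified base between them. The windows below hold the 250 bases before the annotated start, on the strand of the gene, and capitals mark a match to ERSE or ERSE-II on either strand. HERPUD1 (chr16:56931892-56932141, plus strand) is the member that fell, HSPA5 (chr9:125241344-125241593, minus strand) encodes BiP, and HYOU1 (chr11:119057206-119057455, minus strand) and SDF2L1 (chr22:21642052-21642301, plus strand) share the ERSE-II form with HERPUD1. HSP90B1 (chr12:103930160-103930409, plus strand) holds ERSE in both orientations.
HERPUD1: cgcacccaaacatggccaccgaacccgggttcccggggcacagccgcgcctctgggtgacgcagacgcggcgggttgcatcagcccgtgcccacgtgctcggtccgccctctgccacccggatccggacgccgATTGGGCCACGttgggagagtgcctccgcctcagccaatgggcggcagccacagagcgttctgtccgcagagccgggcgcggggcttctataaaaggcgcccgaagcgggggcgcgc
HSPA5: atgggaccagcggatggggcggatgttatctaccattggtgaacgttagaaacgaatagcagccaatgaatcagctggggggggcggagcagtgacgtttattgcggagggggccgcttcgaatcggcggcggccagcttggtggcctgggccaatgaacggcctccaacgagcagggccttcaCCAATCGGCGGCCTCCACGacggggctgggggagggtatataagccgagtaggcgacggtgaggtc
HYOU1: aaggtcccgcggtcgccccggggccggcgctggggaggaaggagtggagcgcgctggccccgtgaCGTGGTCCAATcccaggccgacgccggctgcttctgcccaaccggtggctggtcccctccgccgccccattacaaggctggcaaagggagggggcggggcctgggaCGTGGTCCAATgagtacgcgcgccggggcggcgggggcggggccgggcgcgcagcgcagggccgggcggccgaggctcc
SDF2L1: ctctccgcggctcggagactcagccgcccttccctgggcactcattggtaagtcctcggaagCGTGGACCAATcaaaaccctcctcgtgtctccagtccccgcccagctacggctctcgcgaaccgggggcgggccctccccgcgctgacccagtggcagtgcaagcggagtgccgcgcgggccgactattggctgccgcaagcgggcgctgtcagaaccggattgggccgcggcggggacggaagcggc
HSP90B1: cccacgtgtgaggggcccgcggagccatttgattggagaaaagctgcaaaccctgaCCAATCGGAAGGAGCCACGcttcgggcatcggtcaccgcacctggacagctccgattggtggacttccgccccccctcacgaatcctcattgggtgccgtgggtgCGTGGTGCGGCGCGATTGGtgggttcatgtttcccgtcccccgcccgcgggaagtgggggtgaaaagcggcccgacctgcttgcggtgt

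The match in HERPUD1 is ATTGGGCCACG and ends 106 bases before the start, and that in HSPA5 is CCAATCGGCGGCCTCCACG and ends 47 bases before it. HYOU1 holds CGTGGTCCAAT at 2 places, ending 174 and 68 bases before the start, and SDF2L1 holds CGTGGACCAAT. These are ERSE-II on the opposite strand. Promoter windows were found for 32 of the 35 members, with 40 windows because some genes have several annotated starts. PDIA3, DERL1 and DERL3 had no window. ERSE was found in 9 of the 40 windows (22.5%), which belong to 8 members: CALR, CANX, CRELD2, ERO1B, HSP90B1, HSPA5, PDIA6 and XBP1. Of all 35116 windows of this length, 26 (0.074%) held it. ERSE-II was found in 3 of the 40 windows (7.5%) and in 18 of all windows (0.0513%). ERSE contains both CCAAT and CCACG, and ERSE-II contains CCACG and, on the opposite strand, CCAAT. By itself CCAAT was found in 30 of the 40 member windows and in 32.01% of all windows, and CCACG in 25 of the 40 and in 33.5% of all. Counted by gene, CCAAT was in 27 of 32 members and in 39.7% of the genes on the array with a window, and CCACG in 22 of 32 and in 46.0%. The XBP1-type core TGACGTGG was found in HYOU1 alone among members, where it overlaps an ERSE-II match, and in 0.612% of all windows. Every motif was searched on both strands, and the members were listed for their known role in this response, which these elements helped to define.

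The 11 measured members with ERSE or ERSE-II had differences from -0.60 (HERPUD1) to 0.077 (CRELD2), with a median of -0.023, and 6 lay below 0 and 5 above. The 20 measured members with a window and neither element had a median of -0.0057, with 10 below and 10 above. SDF2L1, which holds the element of HERPUD1, differed by 0.022 (SE 0.077, interval -0.15 to 0.20). HYOU1, which holds it in 2 copies, had one of -0.11 (SE 0.061, interval -0.25 to 0.027). Among the 11, HERPUD1 was the only member called.

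HERPUD1 is itself a member of the degradation machinery, where it helps to gather the ubiquitin ligase complex. Its log2 signal was 10.82, 11.02 and 10.74 in control replicates 1, 2 and 3, and 10.14, 10.32 and 10.32 in S153E-RKIP replicates 1, 2 and 3. All arrays labelled S153E-RKIP lay below all control arrays, and the gap between the groups was wider than the spread within either. The means were 10.86 ± 0.15 and 10.26 ± 0.11 (SD, n = 3 each), a log2 fold change of -0.60 (95% confidence interval -0.80 to -0.40, SE 0.089, limma adjusted p = 0.0146). A second, much dimmer probe set (mean 5.77) had a difference of -0.053 (adjusted p = 0.751 over all probe sets), and averaging the pair gave a log2 fold change of -0.33 (limma adjusted p = 0.0292). The call was lost without control replicate 1 (-0.62, limma adjusted p = 0.0856), control replicate 2 (-0.52, 0.0502), S153E-RKIP replicate 2 (-0.63, 0.0674) or S153E-RKIP replicate 3 (-0.63, 0.0539). It was kept without control replicate 3 or S153E-RKIP replicate 1.

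**Figure D1:**
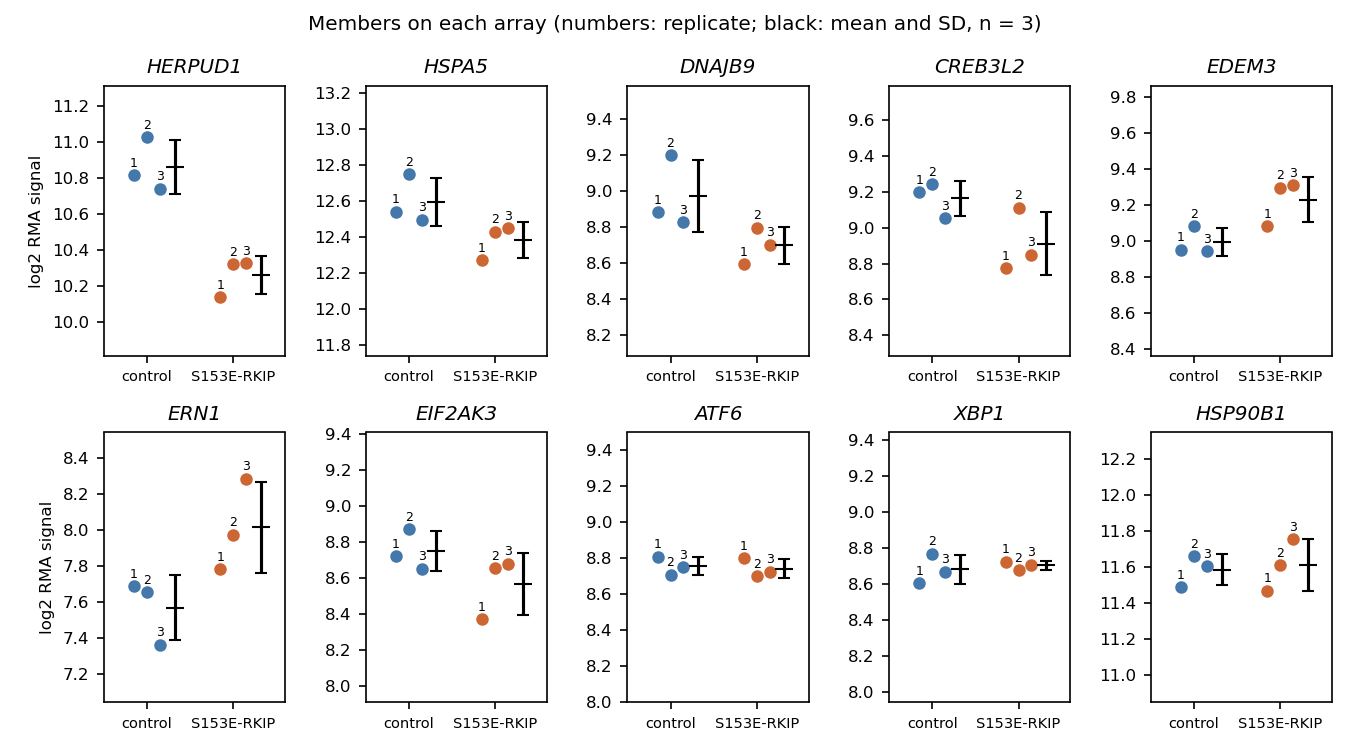
Log2 RMA signal (vertical axis, spanning 1.5 log2 units in every panel) of 10 members on the 3 control and 3 S153E-RKIP arrays, with replicate numbers beside the points and the mean and SD in black. The groups of HERPUD1 are parted by a wide gap, those of HSPA5, DNAJB9 and ERN1 by a narrow one, and the points of ATF6, XBP1 and HSP90B1 overlap between the groups.

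The chaperone BiP and its partners came next. HSPA5, the main ER chaperone and a standard readout of the response, had signals of 12.54, 12.75 and 12.50 on the control arrays and of 12.27, 12.43 and 12.45 on the S153E-RKIP arrays. Its groups did not overlap, but control replicate 2 stood well above the other controls. The log2 fold change was -0.21 (SE 0.084, 95% confidence interval -0.40 to -0.020, unadjusted p = 0.0344, limma adjusted p = 0.281). It was -0.14 without control replicate 2 and -0.16 without S153E-RKIP replicate 1. DNAJB9, a J-domain cofactor that also restrains IRE1, read 8.88, 9.20 and 8.83 against 8.59, 8.80 and 8.70. Again control replicate 2 was the highest array, and the highest S153E-RKIP array came close to the lowest control. The log2 fold change of DNAJB9 was -0.27 (SE 0.10, unadjusted p = 0.0288, limma adjusted p = 0.261), and -0.16 without control replicate 2. All 3 of its probe sets had a difference below 0, from -0.33 to -0.097.

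The other 7 of these 9 genes had differences from -0.11 for HYOU1, a nucleotide exchange factor, to 0.094 for SIL1, another exchange factor. DNAJB11 (0.049) and DNAJC3 (-0.081) are J-domain cofactors, MANF (0.0032) and CRELD2 (0.077) are secreted or resident stress proteins, and SDF2L1 works with DNAJB11. CRELD2 read 9.12, 9.04 and 9.09 against 9.14, 9.19 and 9.14, with the groups apart by a narrow margin (limma adjusted p = 0.521). In this role group 0 of 9 were called and 2, HSPA5 and DNAJB9, had an unadjusted p under 0.05.

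The remaining chaperones lay close to 0 on the probe sets used. HSP90B1, the ER form of HSP90, read 11.49, 11.66 and 11.61 on control arrays and 11.47, 11.61 and 11.76 on the others, so that the groups covered each other. Its log2 fold change was 0.027 (SE 0.084, 95% confidence interval -0.17 to 0.22). The probe set used can pair with several transcripts, and brighter ones assigned to HSP90B1 together with another gene were not used. CANX, the membrane lectin calnexin, read 13.03, 13.01 and 12.90 against 12.90, 12.98 and 12.99, with a difference of -0.023 (interval -0.16 to 0.12). Of the 5 probe sets of CANX 4 had a difference below 0. The dimmest (mean 4.45) had one of 0.33 (unadjusted p = 0.0154, limma adjusted p = 0.238 over all probe sets). Averaging all 5 turned the value of CANX to 0.043. CALR, its soluble relative calreticulin, had a difference of 0.0022 (interval -0.12 to 0.12). The probes used for CALR may match more than 1 transcript, and without such probe sets its difference was -0.057.

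Disulfide bonds are made by the isomerases and recharged by the ERO1 oxidases. PDIA6 read 12.14, 12.20 and 12.13 on control arrays and 12.03, 12.18 and 12.19 on the others, a difference of -0.026 (SE 0.063). The probes used for PDIA6 may match more than 1 transcript. All 4 of its probe sets had a difference below 0, down to -0.097, and 0 were called. PDIA3, PDIA4 and P4HB, which is also a subunit of collagen prolyl hydroxylase, had differences of 0.050, 0.016 and 0.033, and averaging the 3 probe sets of PDIA3 turned its value to -0.056. ERO1A, the widely expressed oxidase, read 10.96, 10.96 and 10.99 against 11.11, 11.07 and 11.00. Its S153E-RKIP arrays all lay above its control arrays, by 0.092 on average (SE 0.056, interval -0.035 to 0.22, limma adjusted p = 0.455). ERO1B had a mean of 5.99, under the median gene (6.64), in a range with no measure of signal over background, and a difference of -0.084 (SE 0.13). Of these 6 enzymes 0 were called and 0 had an unadjusted p under 0.05.

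**Figure D2:**
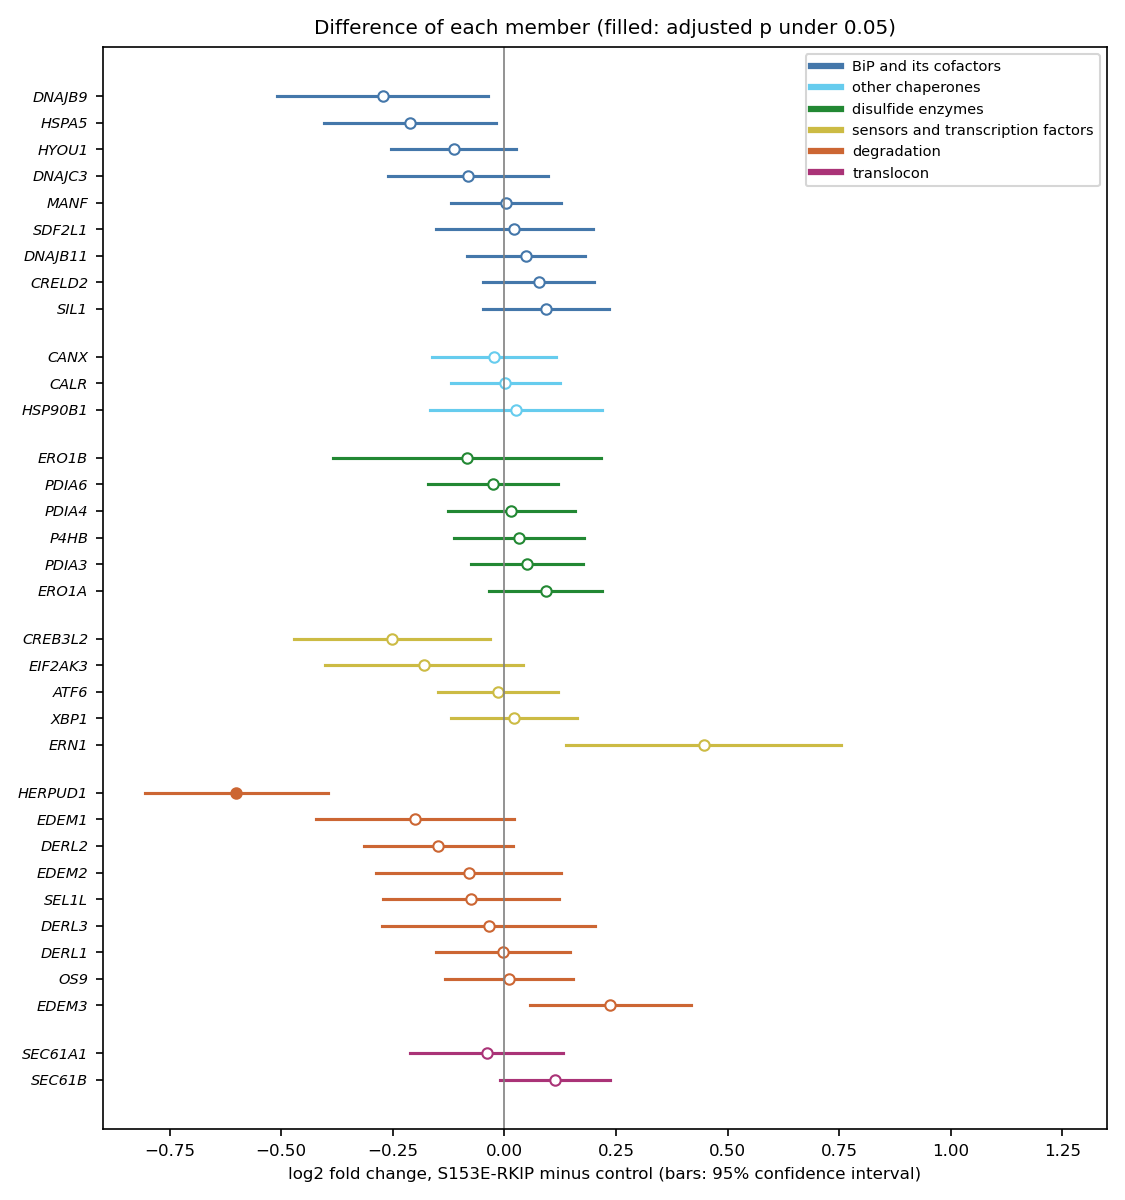
Log2 fold change (horizontal axis, S153E-RKIP minus control) of the 34 measured members by role, with 95% confidence intervals from limma as bars. The filled point is HERPUD1, at -0.60, and open points mark the 33 members that did not pass the test, of which ERN1 lies farthest right at 0.45.

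Among the sensors, ERN1 had the largest difference of all members that did not pass the test. It read 7.69, 7.65 and 7.36 on control arrays and 7.78, 7.97 and 8.29 on the S153E-RKIP arrays. The groups did not overlap, yet the arrays within each were spread widely, with SDs of 0.18 and 0.25. The log2 fold change was 0.45 (SE 0.13, 95% confidence interval 0.14 to 0.75, unadjusted p = 0.0099, limma adjusted p = 0.174). All 3 probe sets of ERN1 had a difference above 0, at 0.45, 0.21 and 0.13 from the brightest to the dimmest, and the adjusted p with their mean was 0.116 in limma. Over the 6 fits that leave out 1 array the log2 fold change ran from 0.31 to 0.56.

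EIF2AK3, the kinase PERK, read 8.72, 8.87 and 8.65 against 8.37, 8.66 and 8.68, a difference of -0.18 (SE 0.097, limma adjusted p = 0.408). Its low S153E-RKIP array was replicate 1, and without it the difference was -0.081. The average with its dim second probe set gave -0.048. ATF6 read 8.81, 8.70 and 8.75 against 8.80, 8.70 and 8.72, with a difference of -0.015 (SE 0.059, 95% confidence interval -0.15 to 0.12). XBP1 read 8.60, 8.77 and 8.67 against 8.72, 8.68 and 8.71, with a difference of 0.022 (SE 0.062, interval -0.12 to 0.16). Both genes had groups that covered each other, and the arrays do not separate spliced from unspliced XBP1 mRNA. CREB3L2, a membrane-bound transcription factor related to ATF6, read 9.20, 9.24 and 9.05 against 8.77, 9.11 and 8.85. S153E-RKIP replicate 2 lay above the lowest control, and the difference was -0.25 (SE 0.096, unadjusted p = 0.0288, limma adjusted p = 0.261). The 2 dimmer probe sets of CREB3L2 had differences of 0.027 and 0.066, and the average of all 3 gave a log2 fold change of -0.053.

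Degradation genes beside HERPUD1 were not called. The EDEM proteins trim mannose from misfolded glycoproteins, and their genes differed in sign. EDEM3 read 8.95, 9.08 and 8.94 on control arrays and 9.08, 9.30 and 9.31 on the others, and S153E-RKIP replicate 1 tied with the highest control. Its difference was 0.24 (SE 0.079, unadjusted p = 0.0158, limma adjusted p = 0.208), and all 3 of its probe sets had a difference above 0. EDEM1 read 8.40, 8.49 and 8.39 against 7.995, 8.32 and 8.36, a difference of -0.20 (SE 0.097, limma adjusted p = 0.363) with the groups apart by a narrow margin and replicate 1 the lowest. Without S153E-RKIP replicate 1 the difference of EDEM1 was -0.086. EDEM2 had a difference of -0.080.

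SEL1L, the scaffold of the ligase complex, and OS9, a lectin that hands it substrates, had differences of -0.075 and 0.0098. The probes used for OS9 may match more than 1 transcript, and without such probe sets its difference was -0.035. Derlins form part of the exit channel. DERL1 read 11.05, 11.12 and 11.10 against 11.18, 11.10 and 10.98 (difference -0.0029, SE 0.066), and DERL2 had a difference of -0.15. For DERL3 the difference was -0.035 on the brightest probe set, whose probes may match more than 1 transcript, and 0.24 (unadjusted p = 0.0346, limma adjusted p = 0.314 over all probe sets) and 0.098 on the dimmer ones. Its direction thus depended on the probe set, and without S153E-RKIP replicate 3 the brightest one gave 0.093. DERL3 had a mean of 6.03 and lay, like ERO1B, below the median of all genes. In the whole role group 9 of 10 genes were measured, 7 had a difference below 0 and 2 above. Of all 19775 genes, 9166 lay below 0 and 10609 above. The signs of DERL1 and DERL3 changed between settings.

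The translocon moves new proteins into the ER. SEC61B, a small subunit, read 11.93, 11.96 and 11.997 on control arrays and 12.09, 12.04 and 12.09 on the S153E-RKIP arrays. The groups did not overlap, and S153E-RKIP arrays were higher by 0.11 (SE 0.054, interval -0.010 to 0.24, limma adjusted p = 0.355). SEC61A1, the channel itself, had a difference of -0.040 (SE 0.074) on a probe set whose probes may match more than 1 transcript. On its other probe set, of nearly the same signal, it read 10.46, 10.46 and 10.44 against 10.37, 10.31 and 10.29. Those groups did not overlap, and the difference was -0.13 (unadjusted p = 0.0445, limma adjusted p = 0.308 in the fit without such probe sets). In the limma fit over all probe sets its unadjusted p was 0.0529 and its adjusted p 0.361.

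**Figure D3:**
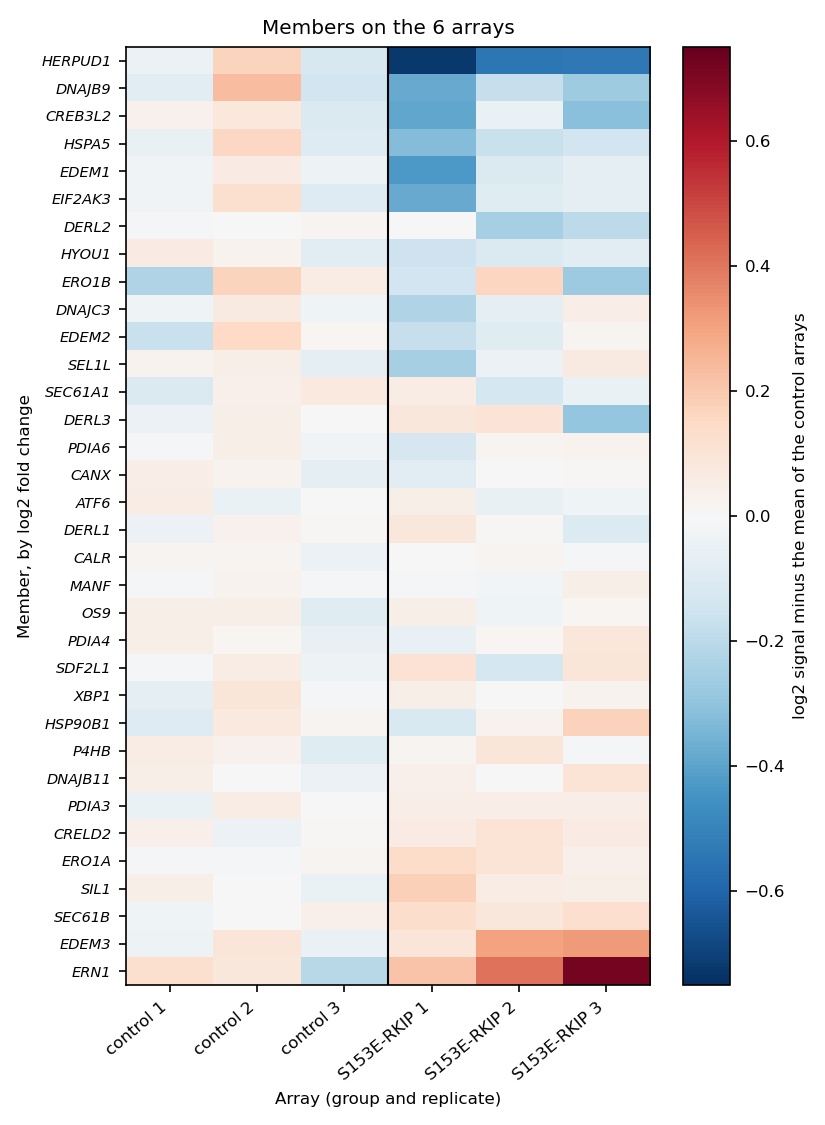
Log2 signal of each of the 34 members (rows, ordered by log2 fold change) on each array (columns) minus the mean of the 3 control arrays, with blue below and red above. HERPUD1 is blue on all 3 S153E-RKIP arrays, while DNAJB9, HSPA5, EDEM1 and EIF2AK3 are bluest on replicate 1 and ERN1 is reddest on replicate 3.

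The place of each array was counted over the members only, with no count over all genes beside it. S153E-RKIP replicate 1 was the lowest of the 6 arrays for 13 of the 34 members, and control replicate 2 was the highest for 13. Control replicate 2 lay above the control mean for 28 members and control replicate 3 below it for 25. With an unadjusted p under 0.05 there were 4 members lower and 2 higher. Without control replicate 2 there were 1 lower and 2 higher, and without S153E-RKIP replicate 1 there were 2 lower and 2 higher. There were 3 lower and 1 higher without control replicate 1, without S153E-RKIP replicate 2 or without S153E-RKIP replicate 3. Leaving out control replicate 3 gave 5 lower and 1 higher. Each of these fits has fewer arrays, and the shares over all genes in them are not given here. Whether the shared position of these genes on single arrays has a part in their differences was not tested.

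Counts over the members were set beside those over all genes. At an unadjusted p under 0.05, 4 members (11.8%) were lower and 2 (5.88%) higher, where 7.92% and 7.75% of all genes were. The split turned with the scaling: it was 1 lower and 6 higher after quantile normalisation again, 2 and 4 after the trend with level was removed by loess, and 5 and 2 with equal medians. Groups that did not overlap were found with S153E-RKIP lower for HSPA5, DNAJB9, HERPUD1 and EDEM1 and higher for CRELD2, ERO1A, ERN1 and SEC61B, or 4 members (11.8%) in each direction, against 10.8% and 9.31% of all genes. The median difference of the 34 members was -0.0088 and that of all genes was 0.010. Below 0 lay 18 members and above it 16, against 9166 and 10609 of all 19775 genes. Most members are brighter than the median gene. With only genes above the median level, the median was -0.029 over all of these genes and -3.8e-04 over the 32 members among them. After quantile normalisation again the median of the members was 0.035, with 14 below and 20 above, and with arrays set to equal medians it was -0.029, with 22 below and 12 above. A difference smaller than 0.1 in size was measured for 23 members (67.6%) and for 60.0% of all genes.

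The intervals show what the arrays could resolve. The median standard error of the log2 fold change was 0.069 over the members and 0.072 over all genes. For 24 of the 34 members the whole 95% confidence interval lay within 0.3 of 0, and for 31 within 0.5 of 0. The exceptions to the latter were HERPUD1, ERN1 and DNAJB9 (-0.51 at its lower bound). The members' probe sets had means from 5.99 to 12.97, and 32 of 34 lay above the median of all genes.

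**Figure D4:**
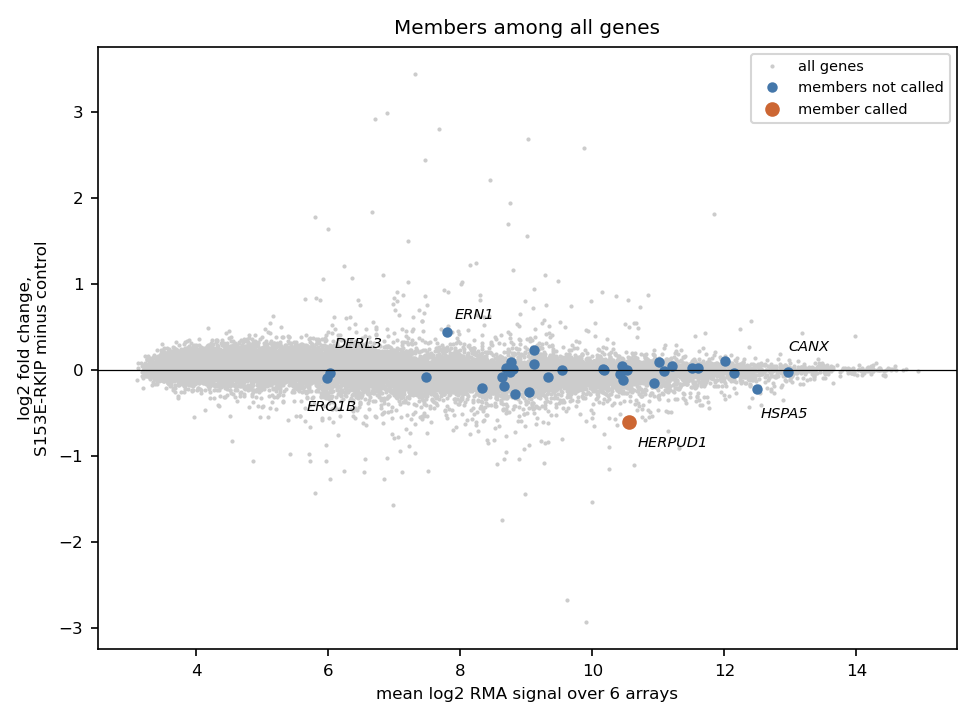
Log2 fold change (vertical axis, S153E-RKIP minus control) against mean log2 RMA signal over the 6 arrays (horizontal axis) for all 19775 genes in grey and the 34 members in colour. HERPUD1, at a signal of 10.56, and ERN1, at 7.79, lie below and above the dense part of the grey cloud.

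Other genes of the same pathway were taken from 6 lists of 98 genes, of which 93 were measured, and 0 of the 93 were called by limma, with 1 higher (1.08%) and 10 lower (10.8%) at an unadjusted p under 0.05, against 7.75% and 7.92% of all genes. The 12 genes of the ATF4 arm, which PERK and other stress kinases switch on, had a median difference of -0.17, with 10 below 0 and 2 above. Over all 19775 genes 9166 were below 0 and 10609 above. ATF4 itself read 12.54, 12.53 and 12.54 on control arrays and 12.44, 12.37 and 12.45 on the others, a difference of -0.12 (SE 0.054, limma adjusted p = 0.339) with groups that did not overlap. DDIT3, the transcription factor CHOP, read 8.55, 8.52 and 8.53 against 8.46, 7.99 and 8.29, a difference of -0.29 (SE 0.11, limma adjusted p = 0.255). Its control arrays were close together and its S153E-RKIP arrays lower and spread. In that list 5 of 12 genes (41.7%) had an unadjusted p under 0.05, all lower, where 7.92% of all genes were: ASNS (-0.41), CHAC1 (-0.40), TRIB3 (-0.30), DDIT3 and SESN2 (-0.20). They were named after their values were seen, apart from DDIT3, and their adjusted p ran from 0.0859 for CHAC1 up to 0.255 for DDIT3 in limma. ASNS, asparagine synthetase, was called without S153E-RKIP replicate 1 (-0.54, limma adjusted p = 0.00848). DDIT4, also named after its values were seen, had the largest difference of the list, -0.59 (SE 0.42, limma adjusted p = 0.522). It read 9.84, 10.65 and 10.10 on control arrays and 8.53, 10.35 and 9.94 on the others, with S153E-RKIP replicate 1 far the lowest.

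The other 5 lists lay near 0. For 17 further folding enzymes and cofactors the median was 0.012, with 1 gene, the peroxiredoxin PRDX4 (0.17), at an unadjusted p under 0.05. The 11 further sensors and processing factors had a median of -0.024 and 3 such genes, CREB3L4, WFS1 and FICD, all lower by about the same amount (-0.20, -0.20 and -0.19). The 18 further degradation genes had a median of -0.045, with 14 below 0 and 4 above, against 9166 and 10609 of all genes. Among them SELENOS (-0.14) and HERPUD2 (-0.18), the paralog of HERPUD1, had an unadjusted p under 0.05. All 6 of these genes were picked out once their values were known. The 21 genes of the translocon and signal processing had a median of 4.7e-04 and the 14 of ER to Golgi trafficking one of 0.0049, with 0 called by limma and 0 at an unadjusted p under 0.05 in either.

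**Figure D5:**
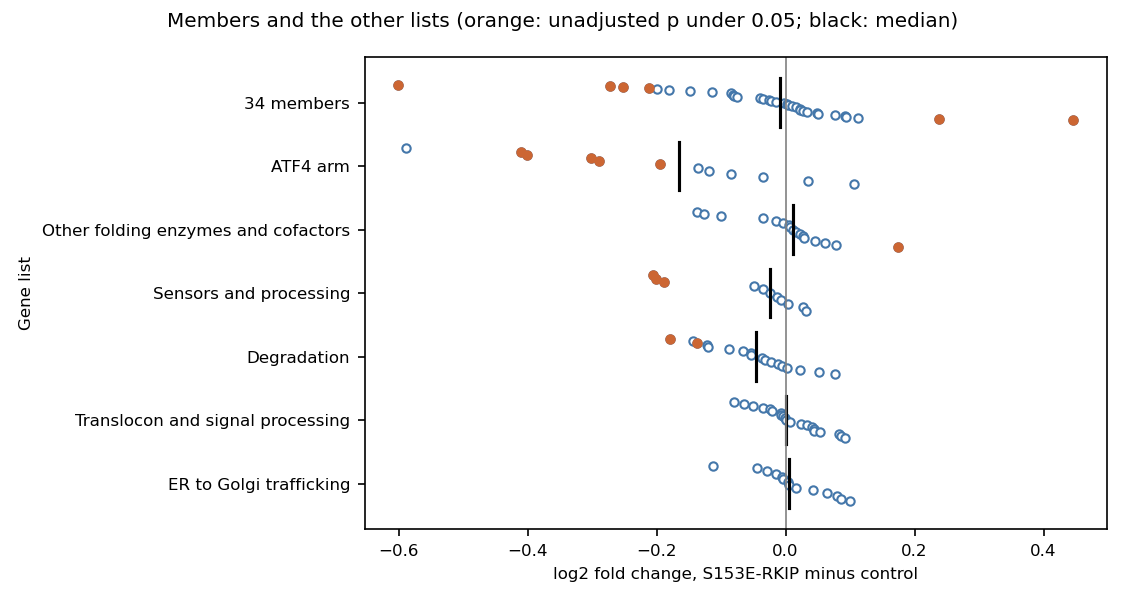
Log2 fold change (horizontal axis, S153E-RKIP minus control) of the 34 members and of the measured genes of 6 other lists (vertical axis), with each list's median as a black line and genes with an unadjusted p under 0.05 in orange. The ATF4 arm has its median at -0.17, while the medians of the members and of the 5 other lists lie between -0.045 and 0.012.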

How the data were processed

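Transcripts were measured on 6 arrays, 3 control and 3 labelled S153E-RKIP, with groups taken from the sample titles. The authors deposited log2 signals, 1 per probe set and array, from RMA per the submitters' processing notes. The sources used here do not give the version of RMA. RMA corrects background, normalises arrays by quantiles and summarises probes. Of 54675 probe sets, 62 are controls and 41097 have 1 gene symbol in the platform annotation, 1801 several and 11777 none. Symbols were set against RefSeq through gene identifiers (41037 matched, 0 changed). Each gene was represented by its own probe set with the highest mean, which left 19775 genes without a filter.

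Groups were compared in limma 3.58.1 under R 4.3.3 (lmFit, eBayes, two-sided), with Benjamini-Hochberg adjustment over all genes. Standard errors and intervals come from the moderated variance, and the number of arrays limits the precision. Simulated data for this comparison over 19775 genes tested the fit, with normal noise drawn independently for each gene and array. Shifts shared by many genes on a single array were thus absent from the simulation. Of 50 genes changed 1.3-fold 23 were recovered, of 50 changed 1.5-fold 38, of 50 changed 2-fold 48, and all 50 changed 4-fold. Of 19575 unchanged genes 4 were called. Given with their values are members with an adjusted or unadjusted p under 0.05, HSPA5, HSP90B1, XBP1, ERN1, EIF2AK3, ATF6, ATF4 and DDIT3, and per role the member with the highest signal and the one with the largest difference. The members and lists were chosen with earlier results of these data known. Alternatives were other probe set rules, a level filter, other normalisations and variance models, a replicate block, and each array left out. Promoter windows are RefSeq's. Protein sequences were not used here. Figures were drawn with matplotlib 3.10.9.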

Additional observations from a re-analysis of the deposited data

How the results depend on the processing

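The fall of HERPUD1 was the single member call in each of the 9 alternatives that keep all arrays, with log2 fold changes from -0.62 to -0.33, and no member was called higher in any of the 15 alternatives. Leaving out 1 array gave 0 or 1 member called lower, with log2 fold changes of HERPUD1 from -0.66 to -0.52 and adjusted p from 0.0390 to 0.0856. Over all genes it gave from 124 to 303 calls in place of 376, and eBayes with trend and robust estimation gave 600. The cause was not tested, apart from the fewer arrays. The median of the members moved under some settings by more than its SD over the 3 S153E-RKIP arrays (0.012). It was -0.023 without probe sets ending in _x_at and 0.035 after quantile normalisation again. With equal medians it was -0.029, and 0.027 after removal of the trend with level by loess. Control arrays spread more widely: the median of the members minus their control means was -0.016, 0.045 and -0.038 on replicates 1, 2 and 3. Leaving out 1 array gave medians from -0.018 to 0.0064. The cause was not tested. Of 541 member values under the alternatives, 490 kept their sign and their side of the threshold, 4 lost the call (HERPUD1 only) and 47 changed sign, in 17 members whose difference never passed the test. Their reported differences were at most 0.084 in size, and the largest value after a change of sign was 0.24, for DERL3 without probe sets ending in _x_at. In the ATF4 arm 1 gene was called with the mean of probe sets, 2 with genes above the median level and 2 with eBayes with trend and robust estimation, all lower.

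With 3 arrays a group, the values cannot settle whether the replicate numbers pair the arrays. The correlation of deviations from the group means was 0.13, 0.26 and -0.044 for numbers 1, 2 and 3. S153E-RKIP replicate 2 correlated best with control replicate 2, as did S153E-RKIP replicate 3 (0.042). For S153E-RKIP replicate 1, control replicates 1 and 3 gave nearly the same value (0.134 and 0.133). With the replicate number as a block, 332 genes were called over all, HERPUD1 was again the member called lower (1) with an adjusted p of 0.0158, 0 members were called higher, and the median stayed at -0.0088. Signal over background was not measured, which limits what can be said of ERO1B and DERL3. Precision was limited by 3 arrays a group.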
